A study of Mus musculus with 8 samples.

Results

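Avpr1a, the gene of vasopressin receptor 1A, had less transcript in mouse thymocyte libraries labelled KO than in those labelled WT, both in cells stimulated in culture and in cells sorted straight from the thymus. Adam12, Adamtsl2, Cldn10, Cenpv and Elk3 shared that direction. These 6 genes were picked by name for being lower under the KO label in both systems, out of 11725 genes listed in both. Since the fold changes under each system's KO label chose them, those values are given below as a description, with no test.

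The KO groups carried the genotype Bcl6fl/fl Cd4cre and the WT groups Bcl6fl/fl, so every library came from cells with floxed Bcl6 alleles and the KO label adds Cre. In the KO in vitro and WT in vitro groups, double-positive thymocytes were held for 24 h on anti-CD3 and anti-CD28, 8 µg/ml each, before cells without CD4 and CD8 were sorted. In the KO in vivo and WT in vivo groups, CD5+ TCRb+ thymocytes lacking both coreceptors were sorted without culture and are called agonist precursors in the labels. Each of the 4 groups had 2 libraries. The Cd4 regulatory sequences that drive Cre are active from the double-positive stage of T cell development, so earlier thymocytes keep the floxed gene. Animal ages are not given in the labels, nor whether a group's 2 libraries represent different mice or wells. The p-values below therefore measure only the spread between these libraries, which may be technical.

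Bcl6 encodes a zinc-finger repressor that recruits corepressors to DNA in lymphocytes. Vasopressin receptor 1A is a receptor coupled to Gq proteins: on binding vasopressin it activates phospholipase C beta, which releases calcium from stores and activates protein kinase C. It is best known from vascular smooth muscle, liver and brain. The 5 other genes act elsewhere. Adam12 encodes a membrane-anchored metalloprotease, Adamtsl2 a secreted glycoprotein that binds fibrillin microfibrils and lacks a protease domain, and Cldn10 a claudin that forms ion pores in tight junctions. Cenpv encodes a protein found at centromeric heterochromatin in mitosis, and Elk3 an ETS factor that joins serum response factor (SRF) on DNA as a ternary complex factor.

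The genes lie on 5 chromosomes of mm10, with Avpr1a (122448499 to 122453452, plus strand) and Elk3 (93247414 to 93311135, minus strand) both on chromosome 10 but far apart. Adam12 spans chromosome 7 from 133883199 to 134232146 (minus strand), Adamtsl2 chromosome 2 from 27079379 to 27108981 (plus strand), Cldn10 chromosome 14 from 118787908 to 118875489 (plus strand) and Cenpv chromosome 11 from 62524946 to 62539261 (minus strand). All 6 are protein-coding genes with several exons, from 2 merged exons in Avpr1a to 28 in Adam12. RefSeq gives 6 promoter windows (GRCm38.p6, the assembly of mm10; each from upstream of a start site to just after it) for 5 of the 6 genes. Those of Avpr1a and Adamtsl2 and both of Cldn10 are printed because they hold the start sites of genes with large falls, and because Cldn10 has 2 starts whose transcripts the gene-level count pools. Capitals mark TATAAA and CAGCTG, read 5′ to 3′ on the strand of the gene.
Avpr1a, plus strand, chr10:122448249-122448548: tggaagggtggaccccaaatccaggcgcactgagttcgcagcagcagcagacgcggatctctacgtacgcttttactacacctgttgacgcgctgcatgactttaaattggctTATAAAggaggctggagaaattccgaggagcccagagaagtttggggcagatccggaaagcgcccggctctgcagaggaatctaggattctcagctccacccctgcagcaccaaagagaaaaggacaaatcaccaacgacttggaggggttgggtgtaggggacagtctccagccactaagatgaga
Adamtsl2, plus strand, chr2:27079129-27079428: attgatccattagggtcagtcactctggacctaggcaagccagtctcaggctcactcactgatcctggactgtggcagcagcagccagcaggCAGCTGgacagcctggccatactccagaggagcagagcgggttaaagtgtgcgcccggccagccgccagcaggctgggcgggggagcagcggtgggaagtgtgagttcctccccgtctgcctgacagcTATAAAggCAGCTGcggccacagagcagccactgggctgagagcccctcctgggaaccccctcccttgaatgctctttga
Cldn10 upstream start, plus strand, chr14:118787621-118787920: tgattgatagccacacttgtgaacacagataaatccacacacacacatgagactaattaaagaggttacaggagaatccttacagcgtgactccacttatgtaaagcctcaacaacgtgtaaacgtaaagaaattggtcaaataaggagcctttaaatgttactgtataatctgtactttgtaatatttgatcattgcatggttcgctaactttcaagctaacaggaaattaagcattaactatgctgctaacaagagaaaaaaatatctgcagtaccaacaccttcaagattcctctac
Cldn10 downstream start, plus strand, chr14:118854700-118854999: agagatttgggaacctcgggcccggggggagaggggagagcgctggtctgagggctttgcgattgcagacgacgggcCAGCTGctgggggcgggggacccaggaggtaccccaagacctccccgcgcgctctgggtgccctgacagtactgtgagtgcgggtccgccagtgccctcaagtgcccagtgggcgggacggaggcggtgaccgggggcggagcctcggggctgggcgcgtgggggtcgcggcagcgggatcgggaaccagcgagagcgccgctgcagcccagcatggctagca
TATAAA lies in the Avpr1a window 137 bases and in the Adamtsl2 window 30 bases before the start site, and in 13.6% of 32851 RefSeq windows. CAGCTG, an E-box, lies in the windows of Adamtsl2 and the downstream start of Cldn10, and in 16.3% of all windows. The 2 Cldn10 windows differ in base composition, with 36% G and C at the upstream start and 72% at the downstream start, against a median of 52.7% over all windows. None of the 6 windows holds TTCCTNGAA (BCL6; 1.59% of all windows), TTCNNNGAA (STAT factors and BCL6, which includes the first motif; 8.3%), AAAGGTCA (NR4A; 1.51%), TGANTCA (AP-1; 7.81%), GCGTGGGCG (EGR; 0.612%), GGAAAA (NFAT; 23.4%), CCGGAAG (ETS; 8.86%) or TGACGTCA (CRE; 1.79%) on either strand. TATAAA was added to the search after the windows had been read.

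Libraries held from 14754440 to 23975636 counts. Bcl6 itself, the targeted gene, had FPKM (fragments per kilobase of transcript, scaled to library size) of 64.6 and 61.0 in KO in vitro against 24.9 and 21.9 in WT in vitro, and of 8.81 and 14.4 in KO in vivo against 11.5 and 13.9 in WT in vivo. The higher value in vitro goes against the label. A count over the whole gene does not show whether the floxed part is missing, so groups are named by their labels throughout. Of 11 alpha beta T cell genes 8 had a row in each system, with summed levels of 4279 and 4304 CPM (counts scaled to library size, with no length correction) in KO in vitro, 4069 and 3767 in WT in vitro, 3180 and 3847 in KO in vivo and 3357 and 3339 in WT in vivo. The 3 receptor constant genes Trac, Trbc1 and Trbc2 had no row. Cd4, which the gates select against, was at 22.8 and 78.4 FPKM in KO in vivo and 26.8 and 55.0 in WT in vivo, and at 10.9 and 11.4 in KO in vitro and 6.84 and 6.98 in WT in vitro. In bulk samples, fewer cells of a type and less RNA per cell cannot be told apart.

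Avpr1a had the largest falls of the 6 in both systems. In vitro its counts were 158 and 301 in KO and 1242 and 1004 in WT, which is 3.34 and 5.19 FPKM in KO and 19.4 and 23.0 FPKM in WT. Every KO library was below every WT library, and the lowest WT library was 3.73 times the highest KO library. The log2 fold change was -2.27 (SE 0.17, n = 2 per group), so KO held 20.8% of the WT level. In vivo the counts were 6 and 4 in KO and 53 and 87 in WT, or 0.147 and 0.0936 FPKM in KO and 1.19 and 2.02 FPKM in WT. The groups were again apart, with a log2 fold change of -3.72 (SE 0.48), and KO held 7.6% of the WT level. With so few molecules the KO-to-WT ratio of summed counts was 0.0748, with an exact 95% binomial interval of 0.0351 to 0.142 that covers counting error only. Avpr1a ranked 8th from the bottom of 9658 genes tested in vitro and 4th of 10227 in vivo.

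**Figure D1:**
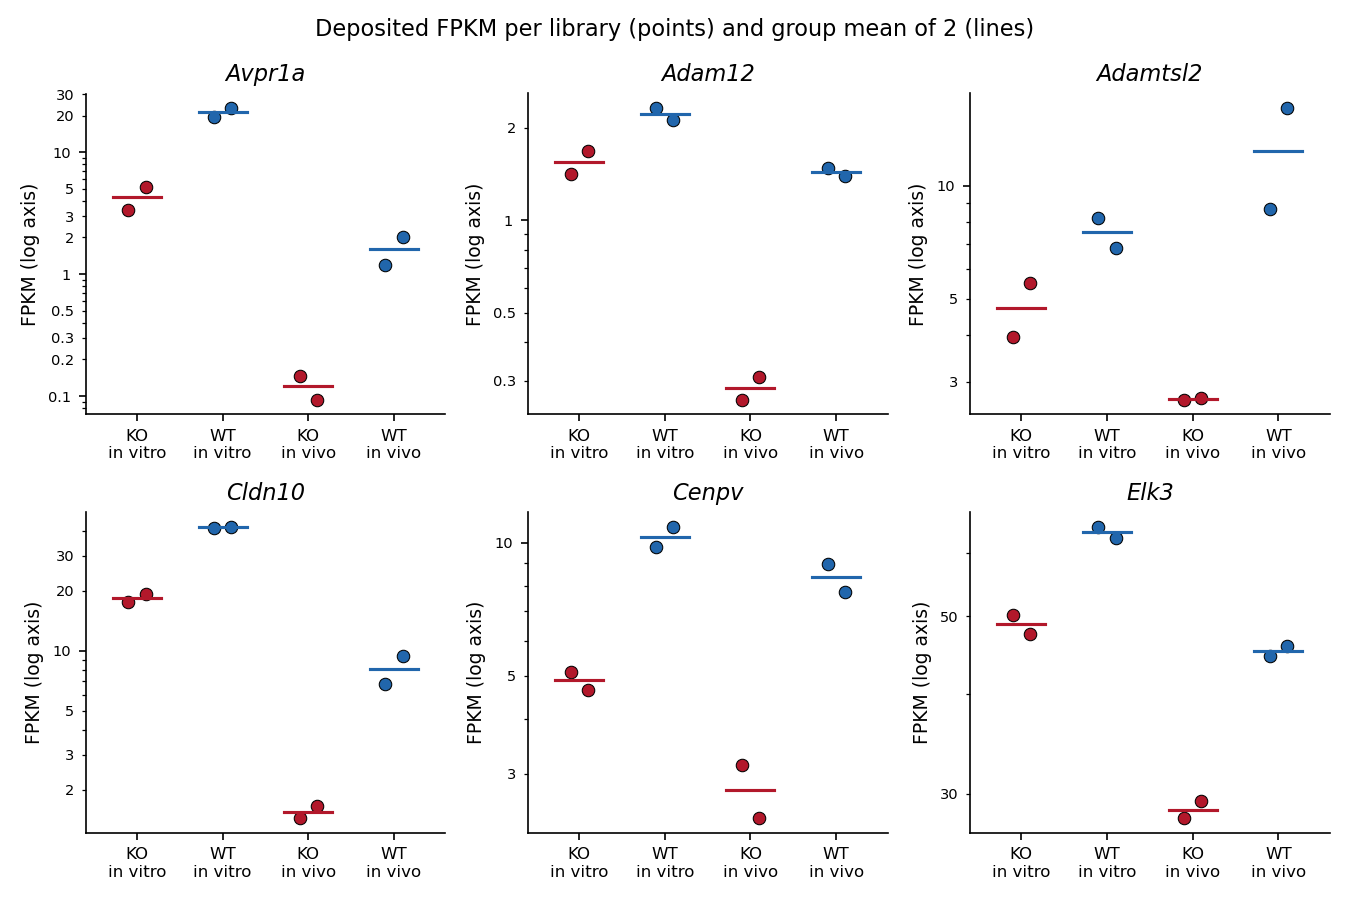
FPKM of each of the 6 genes (log axis) in every library, with KO left of WT in each system; points are libraries and lines are means of 2. In all 6 genes and both systems the KO points lie below the WT points, and Avpr1a in KO in vivo is lowest of all, at 0.147 and 0.0936.

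Among the membrane and matrix genes, Cldn10 was close to level between replicates in vitro, with 17.4 and 19.2 FPKM in KO against 41.4 and 41.9 in WT. The log2 fold change there was -1.16 (SE 0.09). In vivo it had 1.44 and 1.66 FPKM in KO and 6.80 and 9.38 in WT (-2.39, SE 0.23). Neither system's groups overlapped. Adam12 was the least abundant of the 6 in WT in vitro. It had 1.41 and 1.68 FPKM in KO in vitro and 2.32 and 2.11 in WT in vitro, a modest log2 fold change of -0.49 (SE 0.12). In vivo Adam12 had 0.260 and 0.307 FPKM in KO and 1.48 and 1.39 in WT (-2.34, SE 0.19), so that KO held 19.8% of the WT level there against 71.2% in vitro. Adamtsl2 had 3.94 and 5.50 FPKM in KO in vitro and 8.19 and 6.84 in WT in vitro (-0.64, SE 0.14), where the highest KO library came within 1.24-fold of the lowest WT library. In vivo Adamtsl2 had 2.69 and 2.72 FPKM in KO and 8.69 and 16.1 in WT (-2.21, SE 0.29). The 2 WT in vivo libraries differed 1.86-fold from each other in CPM, the widest replicate gap of any WT pair among the 6 genes, while the KO in vivo libraries differed 1.01-fold.

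Of the nuclear proteins, Cenpv had 5.10 and 4.65 FPKM in KO in vitro and 9.77 and 10.9 in WT in vitro, a log2 fold change of -1.05 (SE 0.14). In vivo it had 3.15 and 2.38 FPKM in KO and 8.94 and 7.76 in WT (-1.60, SE 0.21). Its groups were apart in both systems. Elk3, the most abundant of the 6 in every library, had the smallest fall and tight replicates. It had 50.2 and 47.5 FPKM in KO in vitro and 64.7 and 62.7 in WT in vitro (-0.36, SE 0.08), and 27.9 and 29.3 in KO in vivo against 44.6 and 45.9 in WT in vivo (-0.67, SE 0.09). KO thus held 78% of the WT level in vitro and 62.9% in vivo. Elk3 overlaps Cdk17 on the opposite strand, and the strand setting of the counting is not given in the sources used here, so reads of the overlap cannot be told apart. Cdk17, with log2 fold changes of -0.22 (SE 0.09) in vitro and -0.34 (SE 0.14) in vivo, did not pass in either system (edgeR quasi-likelihood, Benjamini-Hochberg adjusted p = 0.0818 and 0.344).

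All 6 were past the threshold used to pick them, an adjusted p under 0.05 with edgeR's quasi-likelihood test over all genes tested, where 17.7% of 9658 genes were called lower in vitro and 0.821% of 10227 in vivo (37.8% and 1.1% in either direction). In the deposited FPKM both KO libraries lay below both WT libraries at 38.6% of genes in vitro and 21.4% in vivo. Avpr1a and Adam12 reached the filter of 1 FPKM in 2 libraries only through WT in vivo. How firmly the in vivo threshold was passed rested on single libraries. Without WT in vivo replicate 2 only Adamtsl2 of the 6 was still past it, without KO in vivo replicate 1 only Adam12, without WT in vivo replicate 1 all but Cenpv and without KO in vivo replicate 2 all but Elk3. The direction of the fall held in each case. With each library left out in turn, the in vivo log2 fold changes ranged from -4.07 to -3.28 for Avpr1a, -2.45 to -2.23 for Adam12, -2.58 to -1.69 for Adamtsl2, -2.60 to -2.13 for Cldn10, -1.82 to -1.40 for Cenpv and -0.69 to -0.64 for Elk3. In vitro Adam12 missed the threshold when replicate 1 of KO or of WT was dropped (adjusted p = 0.0636 and 0.0531, edgeR), and the 5 other members passed with any 1 library dropped.

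**Figure D2:**
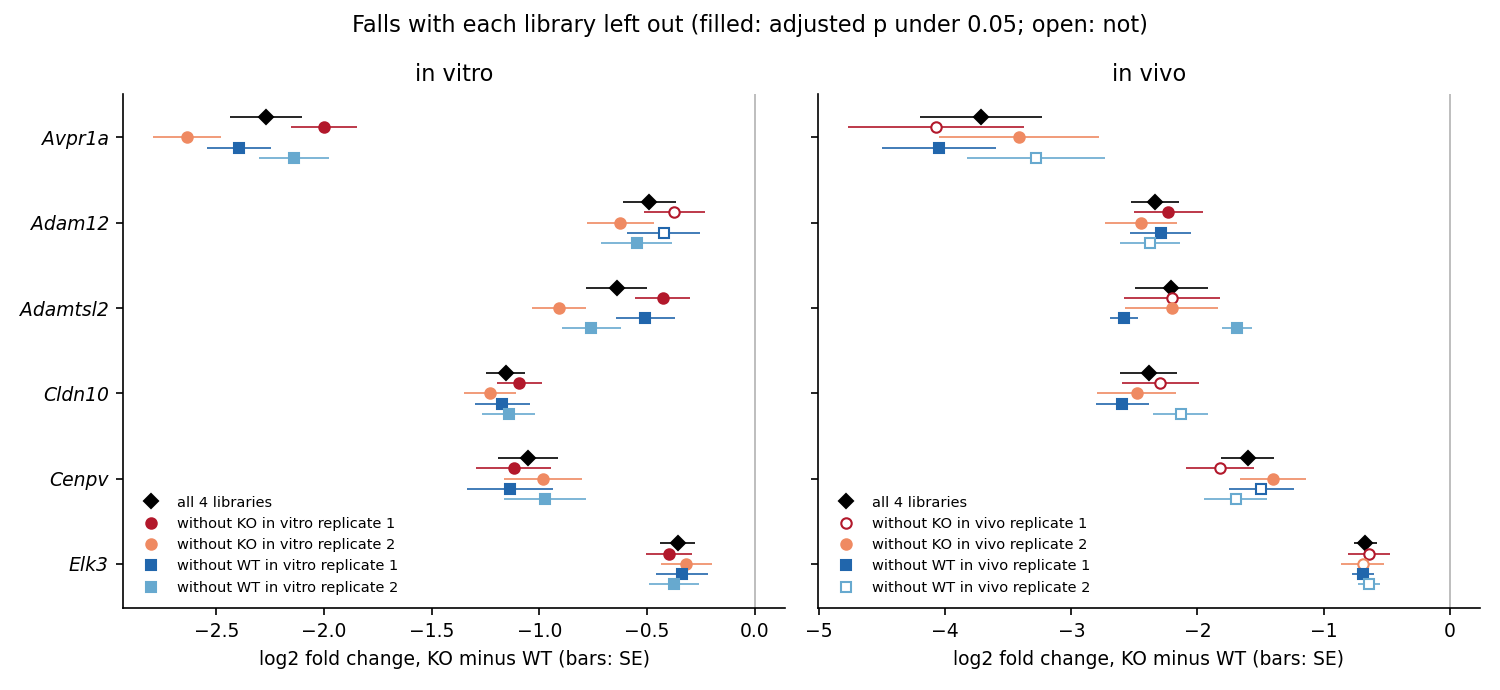
Log2 fold change of KO minus WT for each gene in vitro (left) and in vivo (right) with all 4 libraries and with each library left out; bars are SE, filled symbols have an adjusted p under 0.05 and open ones do not. Every value is below 0, while in vivo most symbols are open without KO replicate 1 or WT replicate 2.

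The falls were larger in vivo than in vitro for each of the 6. The difference between the 2 log2 fold changes, in vivo minus in vitro, was -1.85 (SE 0.23) for Adam12, -1.57 (SE 0.32) for Adamtsl2, -1.45 (SE 0.51) for Avpr1a, -1.23 (SE 0.24) for Cldn10, -0.55 (SE 0.25) for Cenpv and -0.31 (SE 0.12) for Elk3. It was not tested, since it is built from the contrasts that chose the genes. The choice itself favours such a difference: the smallest log2 fold change called lower was -0.22 in vitro and -0.63 in vivo. The order of the falls also differed. After Avpr1a, Cldn10 and Cenpv had the larger falls in vitro, whereas in vivo Cldn10, Adam12 and Adamtsl2 differed from each other by less than their SE, and Cenpv came after them.

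In all, 30 genes were called lower in both systems, 0.32% of the 9364 tested in both. They make up 1.76% of the 1709 genes called lower in vitro and 35.7% of the 84 called lower in vivo. Single in vivo libraries decide that count, which became 3 without WT in vivo replicate 2, 5 without KO in vivo replicate 1 and 53 without WT in vivo replicate 1. By the smaller of its 2 falls Avpr1a stood first of the 30, Cldn10 9th, Cenpv 11th, Adamtsl2 21st, Adam12 26th and Elk3 28th. The 10 others with the largest smaller fall, as log2 fold change in vitro and then in vivo, begin with Tmem158 (-1.78, SE 0.18; -2.23, SE 0.27), Epdr1 (-1.73, SE 0.17; -2.49, SE 0.33) and Nr4a2, an orphan nuclear receptor induced by T cell receptor signals (-1.67, SE 0.08; -1.75, SE 0.22). Itgb8, the integrin chain that activates latent TGF-beta, had -1.59 (SE 0.10) in vitro and -2.54 (SE 0.35) in vivo. Gpm6b, Sptb (beta spectrin), Scel, Eno3 (muscle enolase), Myo1e (a class I myosin) and the inhibitory receptor Pdcd1 ranged from -1.25 to -0.96 in vitro and from -2.38 to -1.18 in vivo. Epdr1 and Sptb reached the filter in vivo only through WT. In 29 of the 30 the fall was larger in vivo, the exception being the receptor Cd160 (-1.21, SE 0.10 in vitro; -0.63, SE 0.09 in vivo). The median of the 24 other genes was -0.89 in vitro and -1.68 in vivo, against -0.85 and -2.27 for the 6. By the larger of the 2 adjusted p-values, Elk3, Slc26a10 and Zfp948 lay just inside the threshold at 0.0393, 0.0465 and 0.0498, and Hsdl2, Basp1 and Egr4 just outside at 0.0505, 0.0518 and 0.0552 (edgeR).

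**Figure D3:**
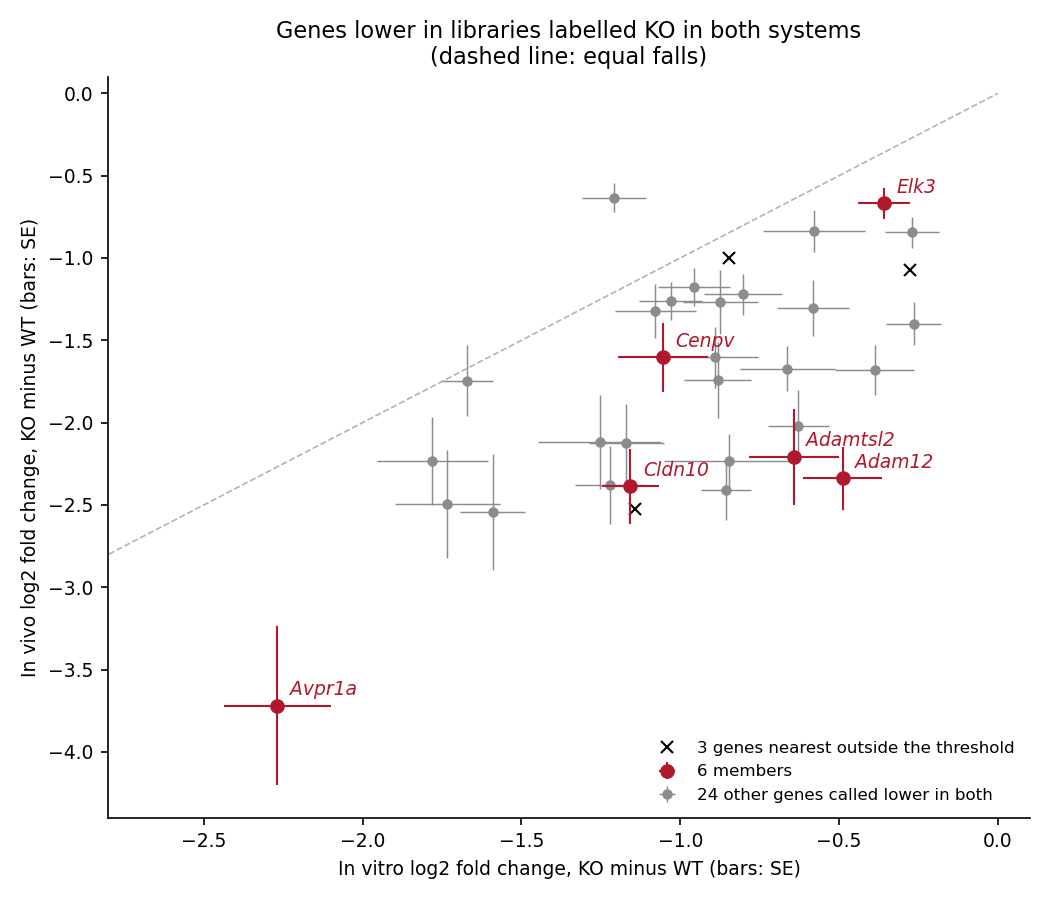
Log2 fold change of KO minus WT in vitro (horizontal) and in vivo (vertical) for the 30 genes called lower in both systems, the 6 described here in red, and for the 3 genes nearest outside the threshold (crosses); bars are SE and the dashed line marks equal falls. Avpr1a stands apart at -2.27 and -3.72, and Elk3 is nearest to 0 of the 6, at -0.36 and -0.67.

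The contrast between systems is not the one that chose the genes, although it rests on the same library values. It was tested with edgeR for WT libraries. Among KO libraries it equals the WT contrast plus the difference between the falls, and is given as a description. System, culture and sequencing provider (BGI Genomics in vivo, Novogene in vitro) changed together and cannot be told apart. Of 10276 genes, 34% were called lower and 34.6% higher in WT in vivo than in WT in vitro. Avpr1a had 3.27 and 5.43 CPM in WT in vivo and 54.5 and 64.4 in WT in vitro, a log2 fold change of -3.75 (SE 0.26; adjusted p = 5.39e-07). Cldn10 had 18.2 and 24.4 CPM in WT in vivo and 113 and 114 in WT in vitro (-2.39, SE 0.13; adjusted p = 1.36e-07). Adam12 (-0.65, SE 0.14; adjusted p = 0.00212) and Elk3 (-0.52, SE 0.08; adjusted p = 0.000254) were also lower in WT in vivo, by less. Cenpv did not pass (-0.32, SE 0.16; adjusted p = 0.102), with 16.8 and 14.1 CPM in WT in vivo and 18.6 and 20.7 in WT in vitro.

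Adamtsl2 alone of the 6 went the other way between the WT groups. It had 71.9 and 129 CPM in WT in vivo and 69.0 and 57.4 in WT in vitro (0.69, SE 0.24; edgeR adjusted p = 0.0237). Without WT in vivo replicate 2 that became 0.20 (adjusted p = 0.33), and it also missed the threshold without WT in vitro replicate 1 (0.85, adjusted p = 0.0526) or WT in vitro replicate 2 (0.57, adjusted p = 0.128). Among KO libraries Adamtsl2 was lower in vivo, with 22.1 and 22.4 CPM in KO in vivo and 33.1 and 46.1 in KO in vitro (-0.82, SE 0.26). The 5 others were lower in KO in vivo than in KO in vitro, at -5.15 (SE 0.41) for Avpr1a, -3.57 (SE 0.16) for Cldn10, -2.46 (SE 0.17) for Adam12, -0.84 (SE 0.19) for Cenpv and -0.79 (SE 0.08) for Elk3. Of all genes, edgeR called 31.2% lower in this contrast and 31.4% higher.

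Per length, the order of the FPKM levels in WT in vitro was Elk3, Cldn10, Avpr1a, Cenpv, Adamtsl2 and Adam12, and no neighbours in that order overlapped in their libraries. In WT in vivo Elk3 was again highest at 44.6 and 45.9 FPKM. Adamtsl2, Cenpv and Cldn10 followed with libraries that overlapped, from 6.80 to 16.1 FPKM, and Avpr1a and Adam12 overlapped at the bottom, from 1.19 to 2.02 FPKM. In KO in vivo Avpr1a was lowest, below Adam12.

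Over the 8 libraries, the log2(CPM + 1) of Cldn10 and Elk3 followed that of Avpr1a most closely among the 6, with Pearson r of 0.981 and 0.965. They ranked 19th and 65th of 9363 genes, places that the choice of all 6 as lower in both systems favours. Adam12 (0.892), Cenpv (0.792) and Adamtsl2 (0.504) were less alike. The genes most like Avpr1a were Pdcd1 (0.996), Myo1e (0.994), Ppp2r1b (0.994), Slc45a3 (0.993) and Cnksr3 (0.992). These correlations describe 8 libraries in 4 groups that share system and label, so they are given without a p. Pdcd1 had 502 and 603 CPM in KO in vitro, 1113 and 1075 in WT in vitro, 154 and 142 in KO in vivo and 311 and 345 in WT in vivo. As with Avpr1a, its WT in vitro libraries were highest and its KO in vivo libraries lowest. Pdcd1 and Myo1e are among the 30 genes lower in both systems, while Ppp2r1b, Slc45a3 and Cnksr3 passed in vitro only.

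**Figure D4:**
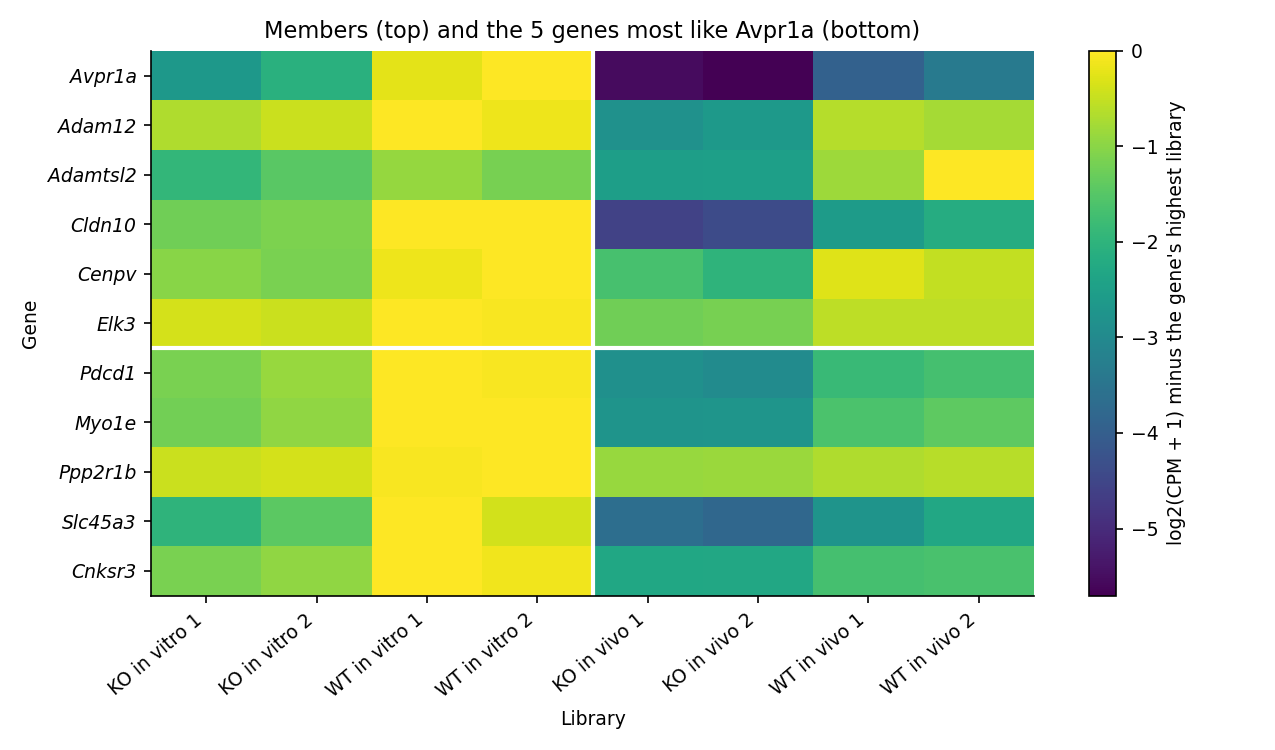
Level of the 6 genes (above the white line) and of the 5 genes most like Avpr1a (below it) in each library, as log2(CPM + 1) minus the gene's highest library; in vitro libraries are on the left. The 6 genes except Adamtsl2, and the 5 like genes, peak in WT in vitro and are lowest in KO in vivo. Adamtsl2 peaks in WT in vivo replicate 2.

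Few genes of the receptor's own pathway were lower with Avpr1a. Of 7 genes of vasopressin and oxytocin receptors, ligands and their peptidase, 3 were tested. Avpr2, the Gs-coupled vasopressin receptor of the kidney, rose in vitro, with 1.47 and 1.36 FPKM in KO and 0.650 and 0.636 in WT (1.15, SE 0.23; edgeR adjusted p = 0.00273). It overlaps Arhgap4 on the opposite strand, which rose by 1.11 (SE 0.10; edgeR adjusted p = 1.68e-05) and had 40.6 and 40.9 FPKM in KO in vitro and 17.4 and 21.3 in WT in vitro, so that reads of the overlap cannot be told apart. Avpr2 reached the filter in vitro only through KO, where it is high. It did not pass in vivo (0.42, SE 0.19; adjusted p = 0.416), nor did the peptidase Lnpep in either system. The list of Gq, phospholipase C beta and calcium release also holds Gq itself, arrestins, receptor kinases and regulators of G protein signalling, so not all lie downstream. Of its 27 tested genes 15 rose in vitro and 2 fell. Their median log2 fold change was 0.40, against -0.0028 over all genes, of which 20.1% rose and 17.7% fell. The listed genes that rose include Itpr3, an inositol trisphosphate receptor that releases calcium (1.47, SE 0.09), the arrestin Arrb2 (1.17, SE 0.10) and the regulator Rgs10 (0.85, SE 0.09). Another regulator, Rgs16, fell by 1.003 on the log2 scale (SE 0.09). In vivo edgeR called 0 of 30 and DESeq2 1, where 6 had an unadjusted p under 0.05, and the median was 0.06, against -0.0036 over all genes. Over all genes an unadjusted p under 0.05 was held by 4547 of 9658 in vitro and 1445 of 10227 in vivo, and DESeq2 called 260 higher and 245 lower in vivo.

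In the families of Adam12, Adamtsl2 and Cldn10, few relatives were expressed. Over all genes tested, edgeR called 20.1% higher and 17.7% lower in vitro, and 0.284% higher and 0.821% lower in vivo. Adam12, picked for being called lower, was the 1 gene called of 5 ADAM metalloproteases tested in vitro and of 7 in vivo. Adam10 and Adam17, the main sheddases of T cells, had log2 fold changes of 0.11 (SE 0.09) and -0.01 (SE 0.08) in vitro and 0.08 (SE 0.10) and 0.13 (SE 0.10) in vivo, none past the threshold. All 3 tested genes of metalloprotease inhibitors and iRhoms rose in vitro, Reck by 0.70 (SE 0.20), Rhbdf2 by 0.52 (SE 0.14) and Timp2 by 0.26 (SE 0.08), with Reck reaching the filter only through KO. None was called in vivo by edgeR or DESeq2, where 1 had an unadjusted p under 0.05. Of ADAMTS and ADAMTS-like genes 3 were tested in vitro and 5 in vivo, and besides Adamtsl2 only Adamts10 was called, higher in vitro (0.62, SE 0.08). In the microfibril and latent TGF-beta list the collagen cross-linker Lox (-2.34, SE 0.29), Lrrc32, which presents latent TGF-beta (-1.50, SE 0.22), and Tgfb3 (-1.10, SE 0.19) fell in vitro and Tgfb1 rose (0.65, SE 0.08), out of 6 tested. Lox and Lrrc32 reached the filter only through WT in vitro. In vivo edgeR and DESeq2 called none of 3, 1 of which had an unadjusted p under 0.05. Of 27 claudins and claudin-domain genes listed, the others past the expression filter were Cldnd1, in both systems, and Cldnd2, in vivo, and edgeR called neither. DESeq2 called 2 of the list lower in vivo, where Cldnd1 had a log2 fold change of -0.66 (SE 0.14). Of other tight junction genes 4 of 5 rose in vitro, opposite to Cldn10, among them Marveld2 by 1.49 (SE 0.30), Tjp3 by 1.12 (SE 0.15) and Patj by 0.28 (SE 0.09). Marveld2, with 1.05 and 0.489 FPKM in WT in vitro, needed KO in vitro to reach the filter. In vivo edgeR called 0 of 7 tight junction genes and DESeq2 1 lower, with 3 at an unadjusted p under 0.05.

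Cenpv had the lowest log2 fold change of the centromere proteins tested in each system, a place that its choice as a lower gene favours. Of 16 tested in vitro 5 rose and 3 fell, with a median of 0.21, against 20.1% higher and 17.7% lower over all genes, and DESeq2 called 3 higher and 2 lower. Cenps rose by 1.11 (SE 0.27) and Cenpm by 0.81 (SE 0.29), and Cenpn fell by 0.85 (SE 0.24). Cenpm reached the filter only through KO in vitro and Cenpn only through WT in vitro. Cenps, with 0.742 and 1.22 FPKM in WT in vitro, also needed KO in vitro to reach it. In vivo edgeR called 1 of 21, Cenpv, and the list's median was 0.26. DESeq2 called 3 higher and 1 lower there, and 8 had an unadjusted p under 0.05. Of chromosomal passenger and pericentric heterochromatin genes edgeR called 0 of 7 in vitro and 0 of 10 in vivo, DESeq2 0 and 3 higher, and 2 and 5 had an unadjusted p under 0.05, against 4547 of 9658 and 1445 of 10227 over all genes. Aurkb, the passenger kinase, had 15.4 and 6.96 FPKM in KO in vivo and 4.79 and 3.54 in WT in vivo (1.42, SE 0.38; edgeR adjusted p = 0.162).

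Elk3, picked for being called lower, was the 1 ETS gene of 15 tested that was called lower in vitro. There 8 rose, against 20.1% of all genes, among them Etv5 (1.53, SE 0.10), Ets1 (1.17, SE 0.13), Etv3 (0.95, SE 0.08) and Fli1 (0.79, SE 0.11). In vivo, where 0.284% of all genes were called higher, Elk3 was lower and Etv5 rose (1.21, SE 0.15; edgeR adjusted p = 0.0388), out of 17 tested. Neither other ternary complex factor was called lower. Elk4 rose by 0.28 (SE 0.09) in vitro and had -0.03 (SE 0.13) in vivo, and Elk1 did not pass (0.23, SE 0.10 in vitro; -0.21, SE 0.17 in vivo). Srf itself had -0.23 (SE 0.10; adjusted p = 0.0999) in vitro and -0.09 (SE 0.09; adjusted p = 0.755) in vivo. Its coactivator Mrtfa rose by 0.45 (SE 0.10) in vitro, while Mrtfb and Fhl2 fell by 0.30 (SE 0.08) and 0.59 (SE 0.11). Of 17 SRF targets 4 rose and 4 fell in vitro, near the shares over all genes of 20.1% higher and 17.7% lower. The largest changes were Egr3 (1.69, SE 0.09), Ier2 (-0.71, SE 0.10), Flna (0.69, SE 0.11) and Zyx (0.66, SE 0.08). In vivo neither edgeR nor DESeq2 called any of 17, and 4 had an unadjusted p under 0.05, against 1445 of 10227 over all genes.

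**Figure D5:**
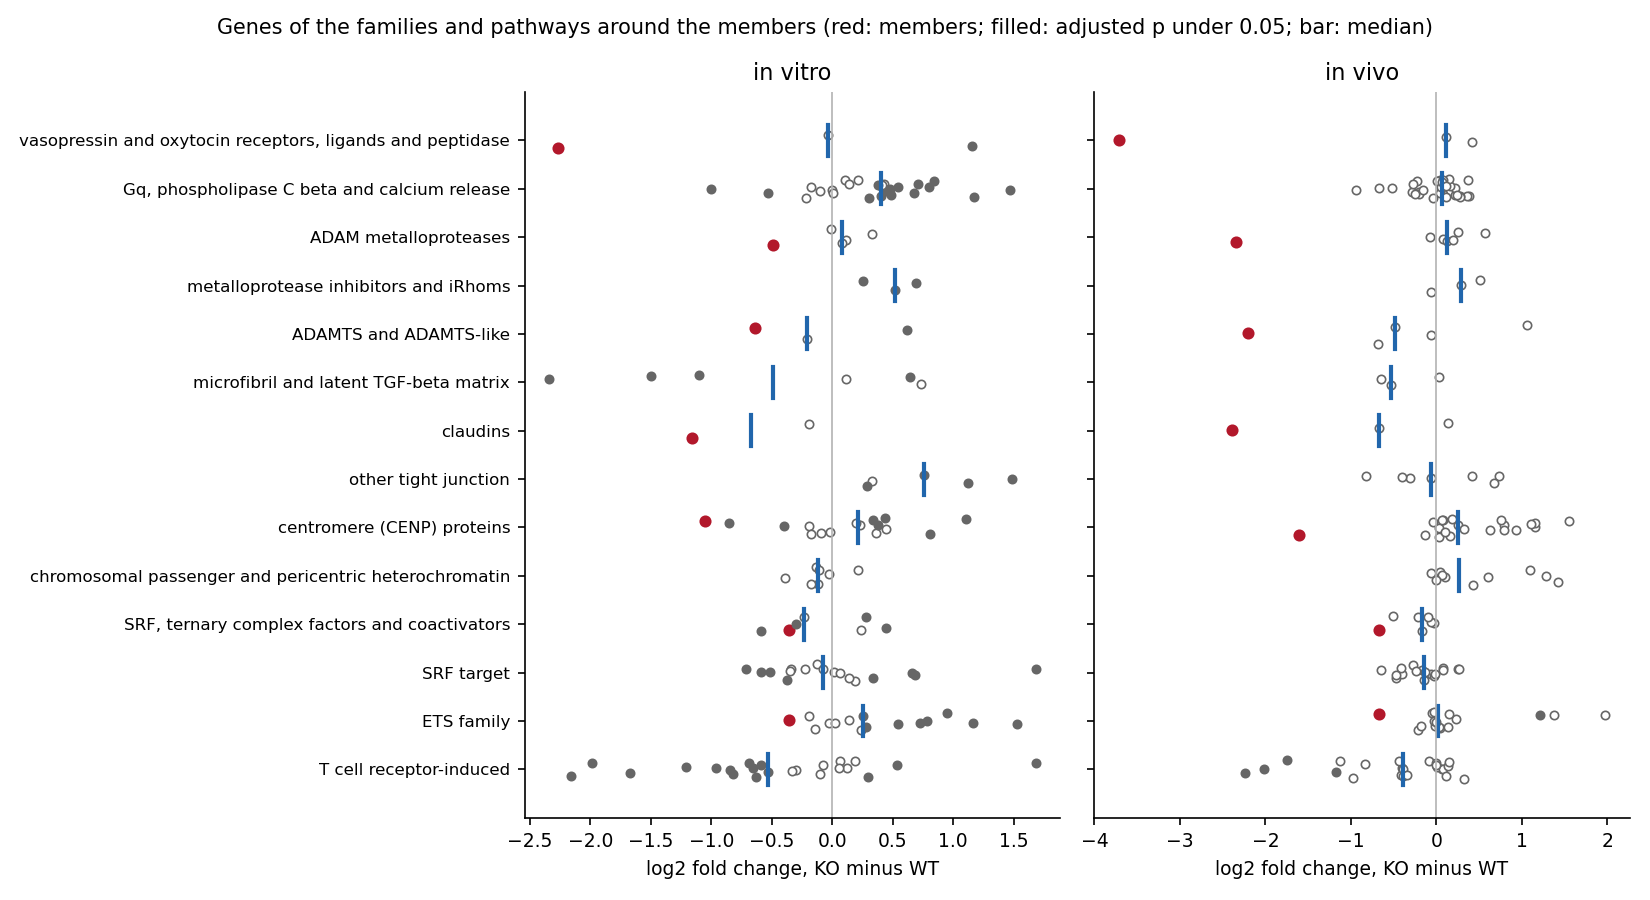
Log2 fold change of KO minus WT for every tested gene of the lists around the 6 members, in vitro (left) and in vivo (right); red points are the members, filled points have an adjusted p under 0.05 and blue bars are list medians. The members lie at or near the left edge of the families of vasopressin receptors, ADAM proteases, ADAMTS-like proteins, claudins and centromere proteins. Their choice as lower genes fixed that side, and few relatives were tested in most of these families. Gq pathway and ETS genes lie mostly right of 0 in vitro, with medians of 0.40 and 0.25.

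Several genes induced by T cell receptor signals were lower under the KO label. Of 23 tested, 12 fell and 3 rose in vitro (median -0.53), against 17.7% lower and 20.1% higher over all genes, led by Xcl1 (-2.16, SE 0.11), Il2ra (-1.98, SE 0.14), Egr3, which rose, and Nr4a2. In vivo 4 fell, Lag3 (-2.23, SE 0.17), Tigit (-2.02, SE 0.21), Nr4a2 and Pdcd1, and none rose (median -0.39), against 0.821% lower and 0.284% higher over all genes. All 4 are also among the 30 genes lower in both systems. Some summed markers of other cells differed between the labels too, but the genes of a list did not all move one way. Summed CPM of the 8 regulatory T cell markers was 999 and 955 in KO in vitro and 1519 and 1606 in WT in vitro, and 493 and 683 in KO in vivo and 800 and 1347 in WT in vivo. All 8 had a row in each system. Foxp3, their defining marker, was at 0.296 and 0.342 FPKM in KO in vitro and 0.373 and 0.468 in WT in vitro, and at 3.36 and 14.1 in KO in vivo and 8.12 and 17.3 in WT in vivo, where the groups overlapped. Of the regulatory T cell markers 6 were tested in vitro, where 3 fell and Ctla4 rose (0.68, SE 0.24). Ctla4, with 0.894 and 1.21 FPKM in WT in vitro, needed KO in vitro to reach the filter. In vivo edgeR called 0 of 8. Ikzf2 had the highest FPKM of these markers in vitro, 74.65 and 70.61 in KO in vitro and 115.8 and 122.5 in WT in vitro. Several of the regulatory T cell markers, Il2ra and Ikzf2 among them, are also receptor-induced. Innate-like T and NK markers, with 2 of 11 listed in vitro, went opposite ways there. Nkg7 was at 13.7 and 16.6 FPKM in KO in vitro and 45.6 and 42.1 in WT in vitro, and Zbtb16 at 0.950 and 1.03 in KO in vitro and 0.331 and 0.394 in WT in vitro, for sums of 18.2 and 21.3 CPM in KO and 44.8 and 41.9 in WT. Early DN markers, 6 of 10 listed, were at 170 and 147 CPM in KO in vitro and 60.2 and 75.3 in WT in vitro, and stromal markers, 9 of 18 listed, at 193 and 190 in KO in vitro and 110 and 127 in WT in vitro. Of those stromal markers 3 were tested in vitro. Pecam1 (0.87, SE 0.10) and Epcam (0.74, SE 0.15) rose, and Ly75 did not pass (0.15, SE 0.11). The rest stayed below 1 FPKM, and among them Acta2 was lower in KO, at 0.0770 and 0.105 FPKM in KO in vitro and 0.247 and 0.223 in WT in vitro. Among the early DN markers Il7r (1.93, SE 0.18) and Kit (1.52, SE 0.22) rose in vitro and Dtx1 fell (-0.65, SE 0.23). Kit reached the filter there only through KO. Il7r had by far the highest FPKM of these markers, at 27.9 and 24.6 in KO in vitro and 5.33 and 8.83 in WT in vitro. Of those not tested in vitro, Mef2c and Lyl1 were lower in KO and Bcl11a was higher. In vivo Kit fell (-2.05, SE 0.28). In vivo the early DN and stromal sums overlapped between KO and WT, and the innate-like sum, with all 11 listed, was 1889 and 1749 in KO in vivo and 1722 and 1157 in WT in vivo. B cell markers, 2 of 7 listed in vitro, were at 7.54 and 8.57 CPM in KO in vitro and 4.39 and 4.24 in WT in vitro. Both rose, although Cd79a reached the filter only through KO in vitro. In vivo, with 6 of 7 listed, the B cell markers were at 76.1 and 56.5 CPM in KO in vivo and 42.5 and 11.9 in WT in vivo. Myeloid markers, 13 of 15 listed in vivo, spread from 283 to 972 CPM in KO in vivo and from 110 to 326 in WT in vivo. The part of these cell populations in the falls was not tested.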

How the data were processed

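RNA was extracted from sorted cells with TRIzol, and BGI Genomics made the in vivo and Novogene the in vitro libraries, per the labels. The deposited tables, 1 for each library, pair a whole-number count with an FPKM for every listed gene, both as made by the authors. Tools listed in the submitters' processing notes are Bowtie2, DESeq2, featureCounts, RSEM, Subread and Trim Galore 0.4.4, with mm10 as build. Which tool did what, the annotation and the strand setting are not stated there. Coordinates are from GENCODE M21 on mm10, which matched 11994 of 12133 symbols in vitro and 12534 of 12665 in vivo.

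Counts were tested with the edgeR 4.0.16 quasi-likelihood test (R 4.3.3, TMM scaling) in each system's 4 libraries, over genes reaching 1 FPKM in 2 or more libraries, two-sided, with Benjamini-Hochberg adjustment and a threshold of 0.05. Each SE was obtained by dividing the size of the log2 fold change by the root of the F statistic. CPM between systems uses scaling over all 8 libraries. Replicates differed by more than counting noise in each group (chi-square per degree of freedom 9.75 to 20.0), so each counts once. With simulated data, 98 of 100 genes given a 2-fold change were found in vitro and 74 of 100 in vivo. At 4-fold, 99 and 100 were found. Mistaken calls numbered 9 in vitro, where 9658 genes were tested, and 20 in vivo, where 10227 were. As a share of all simulated calls, the 20 in vivo exceed what the threshold of 0.05 is meant to allow. How far this holds for the real in vivo calls was not tested.

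The 6 genes and all lists were chosen with earlier results of these data known. Genes named besides the members are up to 4 called genes per list and system with the largest change, the 5 most correlated with Avpr1a, the 10 others lower in both systems with the largest smaller fall, and the 3 nearest the threshold on either side. Adam10, Adam17, Aurkb, Srf, Elk1, Lnpep, Cdk17, Arhgap4, Cd160, Cldnd1, Cldnd2 and single marker genes were named after their values were seen. A gene that the rule names is not reported here. Alternatives were other scalings, filters, limma 3.58.1 on log2(FPKM + 1), DESeq2 1.42.0, all 8 libraries in one fit, a replicate block and each library left out with the genes tested held fixed, run for the counts of calls and the 6 members but not for single genes of the lists.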

Additional observations from a re-analysis of the deposited data

How the results depend on the processing

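The 12 member fold changes kept their direction under all 185 alternative values, and 16 of these moved by more than the spread between replicates. With limma on log2(FPKM + 1) those of Avpr1a and Adam12 in vivo were -1.20 and -0.92, since a pseudocount near a gene's level understates its change, and both missed the threshold with each of the 3 pseudocounts, leaving 4 members called. The counts of genes past the threshold were far less stable. Genes called lower in vitro numbered 1709, and from 1108 to 1597 with a library left out, the lowest without WT in vitro replicate 1. In vivo 84 were called lower and 29 higher. DESeq2 gave 245 lower and 260 higher, a joint model of the 8 libraries 279 and 266, and the replicate block 471 and 607. Limma gave 54 lower and 14 higher with a pseudocount of 1, and 16 higher with 0.1 and with 0.5. Leaving out a library gave from 6 to 124 lower (6 without WT in vivo replicate 2, 18 without KO in vivo replicate 1) and from 1 to 193 higher (1 and 3 without those libraries, 67 without WT in vivo replicate 1, 193 without KO in vivo replicate 2). The 30 genes lower in both systems became 47 with upper-quartile scaling, 70 by DESeq2, 89 in the joint model, 118 under the replicate block and from 3 to 53 with a library left out. Members called lower in vivo numbered from 1 to 5 with a library left out, against 6, and in vitro 5 or 6. For Adamtsl2 between systems the values with a library left out ran from 0.20 to 1.06 among WT and from -1.05 to -0.56 among KO libraries. The cause of these moves was not tested. Same-numbered KO and WT libraries deviated together in vivo (r = 0.459) and oppositely in vitro (r = -0.305), and the labels do not say that a number marks a shared animal or day, so the block is no paired design. Crossing the numbers in vitro, chosen after seeing the data, gave 2451 lower and 2546 higher. Depth limits Avpr1a most, with 6 and 4 counts in KO in vivo.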

Other observations

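The 2 WT in vivo libraries were not alike in these genes. WT in vivo replicate 2 exceeded replicate 1 by 1.86-fold in CPM for Adamtsl2, 1.71-fold for Avpr1a and 1.38-fold for Cldn10, while Adam12, Cenpv and Elk3 differed by no more than 1.15-fold. The summed regulatory T cell markers were also higher in replicate 2 (1347 CPM) than in replicate 1 (800 CPM), as was Foxp3 (17.3 and 8.12 FPKM). In KO in vivo Foxp3 was at 3.36 FPKM in replicate 1 and 14.1 in replicate 2. In the same order Adamtsl2 was at 2.69 and 2.72 FPKM, Cldn10 at 1.44 and 1.66 and Avpr1a at 0.147 and 0.0936. A link between these markers and the 6 genes was not tested. Cd4 was also higher in replicate 2 of both in vivo groups, at 78.4 FPKM in KO and 55.0 in WT, than in replicate 1, at 22.8 in KO and 26.8 in WT. Cd8b1 was at 7.82 and 14.9 FPKM in KO in vivo and 4.03 and 4.90 in WT in vivo, and did not pass (1.34, SE 0.32; edgeR adjusted p = 0.131). Cd8a overlapped between the labels, at 1.17 and 3.49 FPKM in KO in vivo and 1.68 and 2.43 in WT in vivo (0.18, SE 0.49; edgeR adjusted p = 0.944).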
